A study of Mus musculus with 10 samples.

Results

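The genes described here are the nuclear-encoded genes of oxidative phosphorylation (OXPHOS), read in the RNA of sorted neuronal nuclei from adult mouse brain. They were taken as the protein-coding genes of GENCODE M21 (GRCm38) that have at least 2 exons and a symbol beginning with a subunit stem of complexes I to V (Ndufa, Ndufb, Ndufc, Ndufs, Ndufv, Sdha to Sdhd, Uqcr, Cox4 to Cox8 and Atp5). The stems matched 98 genes, of which Sdhaf1 was dropped because it has 1 exon, and the remaining 97 stand among 54532 genes in the count files. Of the 97, 84 are subunits and 13 are assembly or associated factors that carry a subunit stem in their name (Ndufaf1 to Ndufaf8, Sdhaf2 to Sdhaf4, Cox7a2l and Atp5s). By complex there were 46 genes for complex I, 7 for complex II, 8 for complex III, 18 for complex IV and 18 for complex V, spread over 19 chromosomes. Atp5o was present under 2 gene identifiers, so the 97 genes have 96 distinct symbols.

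The study asked what the loss of MPP8, encoded by Mphosph8, or of MORC2A, encoded by Morc2a, does to transcription in neurons. MPP8 is a chromodomain protein of the HUSH silencing complex and MORC2A is an ATPase that works with it. Nuclei positive for NeuN, an antigen of most mature neurons, were sorted from the brain of adult C57BL/6J mice, and their polyadenylated RNA was sequenced. The 5 control libraries carried floxed alleles without Cre: controls 1 to 3 were Mphosph8 fl/fl Nestin-Cre- and controls 4 and 5 were Morc2a fl/fl Nestin-Cre-. The 3 Mphosph8Δ/Δn libraries were Mphosph8 fl/fl Nestin-Cre+ and the 2 Morc2aΔ/Δn libraries were Morc2a fl/fl Nestin-Cre+. Both floxed alleles allow exon 4 to be deleted by Cre, and Nestin-Cre acts in precursors of the whole nervous system, so glia derived from them carry the deletion too. No Nestin-Cre+ library without a floxed gene is among the 10, so the transgene and the deletion cannot be told apart in these comparisons. Each library held between 6686038 (control 5) and 10764555 (control 3) counts assigned to genes. The labels number the samples as separate replicates, and the p-values measure the spread between them.

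Oxidative phosphorylation turns the electrons of NADH and succinate into ATP. Complex I (NADH dehydrogenase) and complex II (succinate dehydrogenase) pass electrons to ubiquinone, complex III passes them to cytochrome c and complex IV to oxygen, and complex V (ATP synthase) uses the proton gradient made on the way. A small set of subunits is encoded in the mitochondrial genome, and all others are encoded in the nucleus and imported. Neurons depend heavily on this pathway, since ion pumping and synaptic transmission consume much of the ATP of the brain.

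The promoters of these genes are known for binding sites of NRF1 and of ETS factors such as GABPA. RefSeq windows (GRCm38.p6) of 300 bases, from 250 before to 50 after a gene start, were matched by symbol or synonym to 79 of the 97 genes. Those without a match included Ndufaf6, Ndufa2, Ndufa4l2, Ndufb9, Ndufs1, Sdhc, Uqcrb, Uqcrc2, Uqcrq, Cox4i1, Cox4i2, Cox6a2, Cox6c, Cox8c, Atp5a1, Atp5mpl and the second identifier of Atp5o. The letters CGCANGCG, the core of the NRF1 site, were found on either strand in 33 of their 84 windows (39.3%), against 8.21% of all 32851 windows. The ETS core CCGGAAG was found in 20 windows (23.8%, against 8.86% of all) and the YY1 letters AAGATGGCG in 8 (9.52%, against 1.40%). The TATA letters TATAAA were found in 9 (10.7%, against 13.6%). The ends of CCGGAAG and AAGATGGCG can overlap, so both were counted where they did. In the first window of each gene, the NRF1 core was present for 13 of 40 genes of complex I, 4 of 6 of complex II, 3 of 5 of complex III, 1 of 13 of complex IV and 7 of 15 of complex V. It was present in the first window of 35.4% of the 79 genes, against 8.42% of all 27025 genes. The 1 of 13 in complex IV is near that share of all genes. These matches are descriptions of the letters, with no test and no measurement of binding.

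To show such windows, the bases upstream of the RefSeq start and outside every GENCODE gene are given, 5′ to 3′ on the strand of the gene, for the most abundant subunit of a complex with an NRF1 core there (no gene of complexes II and III had one in at least 100 such bases), and for Ndufa4, the gene with the smallest p-value when either knockout was compared with the 5 controls. Capitals mark the NRF1 core. All 4 genes lie on the minus strand: Ndufs5 at chr4:123718203-123718436, Cox6a1 at chr5:115348982-115349129, Atp5h at chr11:115419963-115420127 and Ndufa4 at chr6:11907498-11907700.
Ndufs5: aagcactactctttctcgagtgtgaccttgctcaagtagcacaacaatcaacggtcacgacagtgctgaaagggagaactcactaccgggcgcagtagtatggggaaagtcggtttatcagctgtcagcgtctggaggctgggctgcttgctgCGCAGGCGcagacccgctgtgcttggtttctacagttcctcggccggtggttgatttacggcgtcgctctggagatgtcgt
Cox6a1: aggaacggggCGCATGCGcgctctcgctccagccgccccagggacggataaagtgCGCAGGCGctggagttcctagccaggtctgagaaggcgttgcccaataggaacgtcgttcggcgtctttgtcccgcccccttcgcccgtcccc
Atp5h: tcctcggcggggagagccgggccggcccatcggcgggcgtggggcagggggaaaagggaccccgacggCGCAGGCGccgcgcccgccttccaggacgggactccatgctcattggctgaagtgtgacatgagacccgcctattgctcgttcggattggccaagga
Ndufa4: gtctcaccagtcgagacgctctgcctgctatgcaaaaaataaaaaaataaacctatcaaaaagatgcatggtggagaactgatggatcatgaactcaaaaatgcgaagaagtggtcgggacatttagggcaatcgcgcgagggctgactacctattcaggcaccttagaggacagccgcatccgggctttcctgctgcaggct
Ndufs5 and Atp5h each held 1 NRF1 core in these bases and Cox6a1 held 2, while the letters were not in the Ndufa4 bases.

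The targeted genes were read first. Mphosph8 was at 32.2, 33.5, 37.2, 49.0 and 41.6 CPM (counts scaled to library size, here with TMM factors) in controls 1 to 5 and at 37.2, 36.0 and 18.8 CPM in the Mphosph8Δ/Δn libraries, so that only the third lay below all controls. Morc2a was at 163, 139, 138, 122 and 140 CPM in the controls and at 215 and 223 CPM in the Morc2aΔ/Δn libraries, above every control (log2 fold change 0.64 ± 0.14 SE, edgeR quasi-likelihood adjusted p = 0.0916). The deletion is designed to shift the reading frame and to expose the transcript to nonsense-mediated decay, and the counts cover whole genes in nuclear RNA. The counts did not show a loss of the targeted transcript in the first and second Mphosph8Δ/Δn libraries or in either Morc2aΔ/Δn library. The groups are named here by their labels. Rbfox3, which encodes NeuN, was detected in all 10 libraries, between 150 (control 5) and 304 CPM (Mphosph8Δ/Δn 2). Snap25, a synaptic protein of neurons, reached 1916 ± 76.4 CPM (SD, n = 5) in controls, against 63.9 ± 5.68 for the astrocyte gene Slc1a3 and 511 ± 62.1 for the myelin gene Mbp, so that RNA of glial genes was present in the sorted nuclei.

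Levels were compared between genes as CPM per kilobase of exon, averaged over all 10 libraries. The most abundant OXPHOS genes were small subunits of complex IV: Cox8a at 483, Cox6a1 at 389 and Cox4i1 at 298 CPM per kilobase. In complex III, Uqcr10 stood at 294 and Uqcr11 at 186 CPM per kilobase. In complex V, the catalytic β subunit Atp5b stood at 191 and the α subunit Atp5a1 at 168 CPM per kilobase. Complex I was led by Ndufa2 at 176 and Ndufa13 at 154 CPM per kilobase. In complex II, the flavoprotein Sdha, the iron-sulfur subunit Sdhb and the membrane anchor Sdhd had nearly the same level (76.8, 76.4 and 74.8 CPM per kilobase), and the other anchor, Sdhc, was at 5.41. The median subunit had 58.3 CPM per kilobase in complex I, 75.6 in complex II, 90.5 in complex III, 34.5 in complex IV and 45.0 in complex V. These medians include genes with few or no counts; over the subunits that passed the filter on low counts they were 60.4, 75.6, 90.5, 59.0 and 53.3 CPM per kilobase. Reads were 50 bases long, and how reads that fit both a gene and its processed pseudogenes were counted is not given in the sources used here, so that levels of genes with such copies are uncertain.

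**Figure D1:**
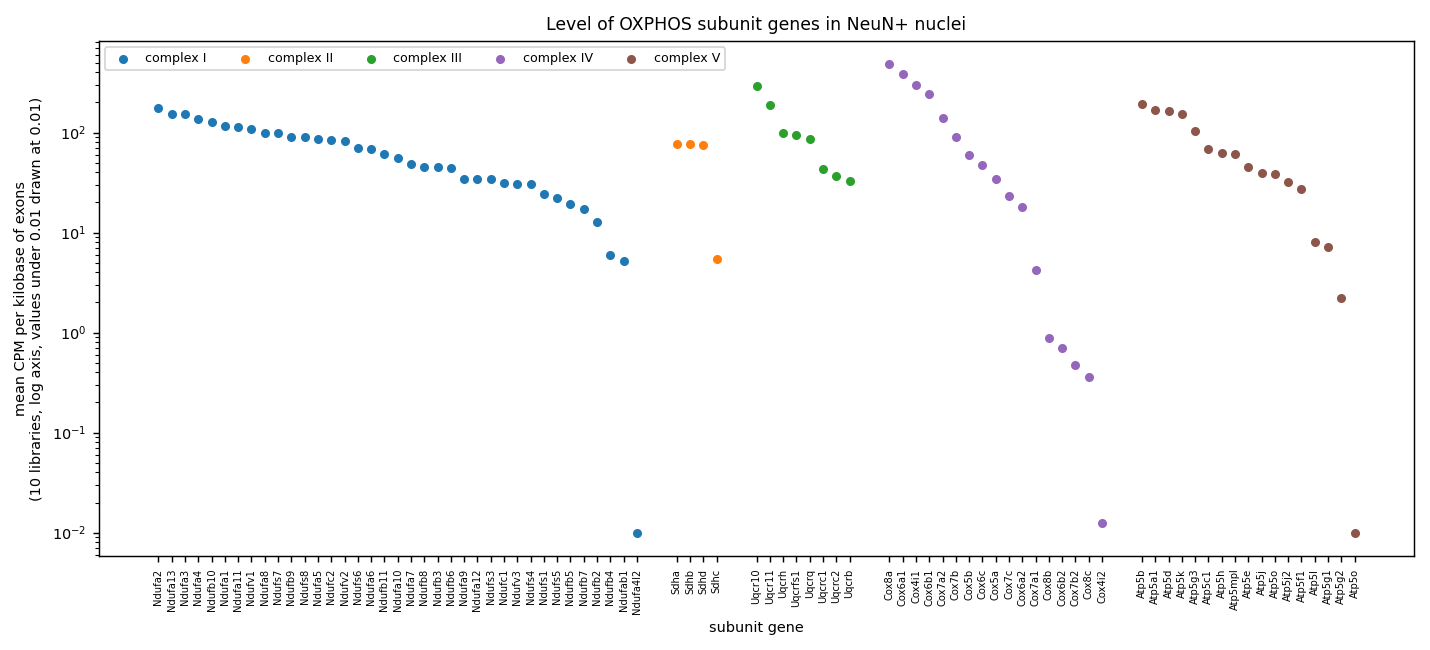
Mean level of OXPHOS subunit genes over the 10 libraries (1 gene is not drawn), as CPM per kilobase of exon on a log axis, ordered within complexes I to V. Cox8a leads at 483 CPM per kilobase, and the tissue isoforms of complex IV lie low, with Cox4i2 at 0.0126; Ndufa4l2 and the second Atp5o identifier had no count and are drawn at 0.01.

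Complex IV has pairs of genes for the same subunit that differ between tissues, and the neuronal nuclei used the ubiquitous forms. Cox4i1 was at 489 ± 76.4 CPM (SD, n = 5) in controls, whereas Cox4i2, the form of lung, had 1 count in control 4 and none in the other 9 libraries. Cox8a was at 324 ± 46.4 CPM, while the muscle form Cox8b had between 0 and 10 counts per library, and the testis form Cox8c had 6 counts in control 4, 7 in control 5 and 0 elsewhere. Cox6b1 was at 184 ± 30.7 CPM and its testis form Cox6b2 at 0.941 ± 0.177. Cox7a2 was at 136 ± 40.9 CPM and its muscle form Cox7a1 at 2.16 ± 1.36. Cox6a1 was at 285 ± 38.4 CPM, and Cox6a2, the form of heart and skeletal muscle, was the only tissue isoform above 5 CPM in controls, at 10.7 ± 2.17. A count of 0 allows up to 3 counts, which is 0.279 to 0.449 CPM in these libraries before TMM scaling, for counting error only. Ndufa4, which was named for complex I and is now placed in complex IV, was at 210 ± 32.6 CPM, and its hypoxia-induced relative Ndufa4l2 had no count in any library. By their symbols, both genes are placed under complex I in all counts, sums, medians and figures here.

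A filter on low counts left 18573 genes, among them 91 of the 97. The 6 genes not tested were Ndufa4l2, Cox4i2, Cox7b2 (0 to 8 counts per library), Cox8b, Cox8c and the second Atp5o identifier, which had no count and whose exons all lie within the exons of other genes. It is 1 of 35 of the 97 that share exonic bases with another gene; among those named below, Ndufaf2 (65.6% of its exonic bases) and Ndufa13 (30.0%) share the most, and their counts are uncertain. The 91 genes were more abundant than the other genes tested and varied less: the median coefficient of variation over the 5 controls was 15.6%, against 24.6% for all genes, and the median biological coefficient of variation in the fit was 0.163 against 0.278.

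In Mphosph8Δ/Δn nuclei the OXPHOS genes lay close to control level. None of the 91 genes was called by edgeR at an adjusted p under 0.05, where 0.113% of all genes were, nor with a fold change over 2 in addition (0.0969% of all genes), and none was called by DESeq2 (0.349% of all genes) or limma-voom. The median log2 fold change was -0.02, against -0.01 for all genes, and 49 of the 91 genes had a value below 0 (51.3% of all genes did). At an unadjusted p under 0.05, 1 gene was higher (2.58% of all genes) and 0 were lower (3.09% of all genes). In 3 genes every knockout library lay above every control (2.31% of all genes) and in 2, Ndufa10 and the assembly factor Ndufaf6, every one lay below (2.26% of all genes). These shares are near the background.

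By complex, the median log2 fold change in Mphosph8Δ/Δn was 0.03 for complex I, -0.10 for complex II, -0.05 for complex III, -0.05 for complex IV and -0.04 for complex V. The summed level of the 97 genes was 9917, 12300.5, 10070.5, 12090 and 12240.3 CPM in controls 1 to 5 and 10691, 11321 and 11362 CPM in Mphosph8Δ/Δn, so that all knockout values fell inside the control range. Against controls 1 to 3 of its own floxed line the median log2 fold change of the 91 genes was 0.08.

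The gene with the smallest p-value was Cox6a2. It was at 14.3, 9.27, 9.92, 10.9 and 8.91 CPM in controls 1 to 5 and at 17.1, 18.2 and 19.98 CPM in Mphosph8Δ/Δn. All 3 knockout libraries were above all controls, with a log2 fold change of 0.79 ± 0.33 SE and an edgeR adjusted p of 0.821. Its gene spans chr7:128205435-128206387 in GRCm38, and 10.3% of its exonic bases are shared with another gene.

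Sdha, which binds FAD and oxidizes succinate, came next. It was at 285, 329, 327, 293 and 314 CPM in the controls and at 361, 332 and 381 CPM in Mphosph8Δ/Δn, without overlap (log2 fold change 0.21 ± 0.10 SE, edgeR adjusted p = 0.894). The other 3 subunits of complex II did not follow it: the log2 fold change was -0.16 for Sdhb and -0.10 for Sdhd, with overlapping groups, and the 0.36 of Sdhc rested on the third knockout library (13.8, 17.6 and 30.5 CPM against 11.4 to 19.1 in controls). Without that library the value for Sdhc was -0.027.

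Cox7a2l, an assembly or associated factor, was at 66.0, 62.7 and 76.4 CPM in Mphosph8Δ/Δn against 54.0 to 59.7 in controls. The groups again did not overlap (log2 fold change 0.25 ± 0.15 SE, edgeR adjusted p = 0.922). Ndufa10, an accessory subunit of complex I, was at 184, 179 and 177 CPM against 188 to 224 in controls (log2 fold change -0.19 ± 0.11 SE, edgeR adjusted p = 0.930). Ndufa5, another accessory subunit, was at 97.3, 135 and 101 CPM against 69.4 to 105 in controls (log2 fold change 0.32 ± 0.17 SE, edgeR adjusted p = 0.900). Of these, Ndufa10 and Cox7a2l did not overlap with controls and Ndufa5 did.

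The remaining genes with small p-values or large values had overlapping groups. Log2 fold changes were 0.37 ± 0.21 SE for Ndufab1, the acyl carrier protein that is also a subunit of complex I, and 0.34 ± 0.25 for Cox7c, a small subunit of complex IV. They were -0.31 ± 0.16 for the complex I subunit Ndufb2, -0.26 ± 0.14 for the Rieske protein Uqcrfs1, -0.33 ± 0.26 for the complex I assembly factor Ndufaf2 and -0.33 ± 0.23 for Sdhaf3, which helps to insert the iron-sulfur clusters of Sdhb. Some of these depended on 1 knockout library: the value was -0.15 for Ndufb2 without replicate 3, -0.19 for Ndufaf2 without replicate 1 and -0.20 for Sdhaf3 without replicate 2, and that of Ndufa5 above was 0.17 without replicate 2. Against controls of the same line the value was -0.060 for Ndufaf2 and 0.50 for Ndufa5. The lowest value was -1.06 ± 1.19 for Cox6b2, which had 0.414, 0 and 0.932 CPM in the knockout libraries, and the c-ring subunit Atp5g2, also of low level, had -0.39 ± 0.48; against controls of the same line the value for Atp5g2 was -0.10, without replicate 2 the values for Cox6b2 and Atp5g2 were -0.47 and -0.24, and without replicate 3 that of Cox6b2 was -2.13. The smallest adjusted p of any of the 91 genes was 0.821, and the errors show that a change of this size could not be resolved for low genes such as Cox6b2.

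In Morc2aΔ/Δn nuclei most OXPHOS genes had a mean level below that of controls, and no gene passed the threshold of edgeR in the fit of all 10 libraries with the filter on low counts. The median log2 fold change of the 91 genes was -0.29, against -0.01 for all genes, and 80 of the 91 had a value below 0 (51.3% of all genes did). At an unadjusted p under 0.05, 23 genes were lower (25.3% of the 91, against 6.4% of all genes) and 2 were higher (4.32% of all genes). Both knockout libraries lay below every control in 26 genes (7.8% of all genes) and above every control in 2 (7.59% of all genes). None was called by edgeR at an adjusted p under 0.05 (0.0861% of all genes) or with a fold change over 2 in addition (0.0592% of all genes), and none by limma-voom. DESeq2 called 5 of the 88 to which it gave an adjusted p (2.59% of all genes with one): Ndufa4, Ndufa5, Ndufa10, Uqcrc1 and Atp5f1, all lower. The members of a list share libraries and were chosen with earlier results of these data known, so that these counts are given as descriptions.

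**Figure D2:**
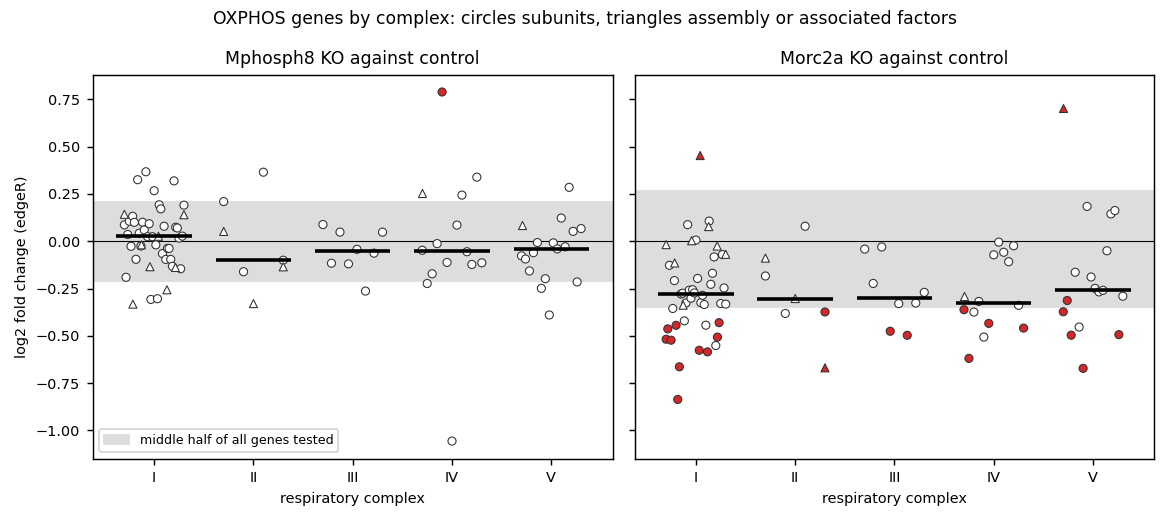
Log2 fold change of each tested OXPHOS gene by complex, in Mphosph8 knockout (left) and Morc2a knockout (right) against the 5 controls. Circles are subunits and triangles assembly or associated factors, filled red at an unadjusted edgeR p under 0.05; thick lines are medians and the grey band spans the range between the quartiles of all 18573 genes. The medians lie near 0 on the left and between -0.26 and -0.33 on the right.

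The fitted median was below 0 in every complex, with no test between complexes. The median log2 fold change was -0.28 over 45 genes of complex I, -0.30 over 7 of complex II, -0.30 over 8 of complex III, -0.33 over 14 of complex IV and -0.26 over 17 of complex V. Relative to the control mean, the medians by complex ran from -0.32 (complex II) to -0.56 (complex III) in Morc2aΔ/Δn replicate 2. In replicate 1 they ran from -0.10 (complex V) to -0.22 (complex II). All 8 genes of complex III and all 14 of complex IV had log2 fold changes below 0. The 78 subunits tested had a median of -0.31, with 71 below 0, and the 13 assembly or associated factors had a median of -0.07, with 9 below 0. The 58 tested genes that share no exonic base with another gene had a median of -0.28.

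The 2 Morc2aΔ/Δn libraries did not show this to the same extent. The median log2 ratio of the 91 genes to the control mean was -0.12 in replicate 1 and -0.41 in replicate 2, and among controls it was -0.17, 0.09, -0.17, 0.10 and 0.13. Controls 1 and 3, which are of the other floxed line, thus lay lower than Morc2aΔ/Δn replicate 1, and only replicate 2 lay outside the control range. Both Morc2aΔ/Δn libraries lay below controls 4 and 5 of their own line. Without replicate 2 the fitted median was -0.15, and without replicate 1 it was -0.45. The genes also moved together among controls: only 10 of the 91 were above the control mean in control 1 and 15 in control 3, whereas 67, 75 and 66 were above it in controls 2, 4 and 5. Of all genes tested, 52.5, 49.8, 52.6, 50.2 and 49.4% were above it in controls 1 to 5.

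**Figure D3:**
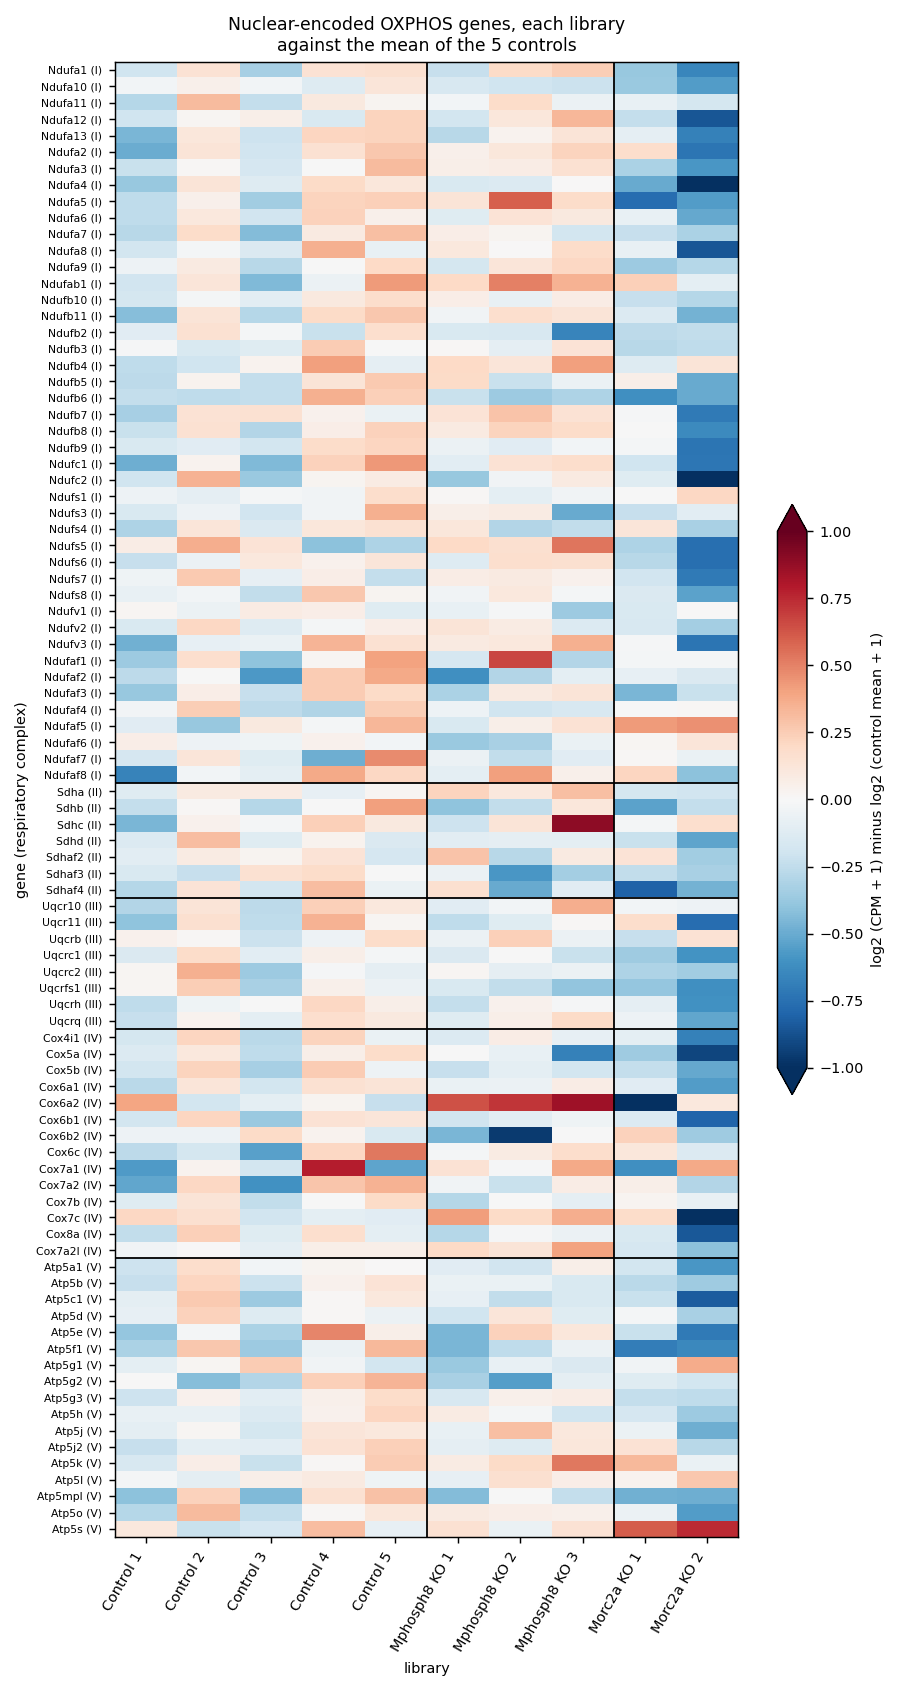
Log2 ratio of tested OXPHOS genes (rows, by complex, subunits before assembly factors; 1 gene is not drawn) to the mean of the 5 controls, in each of the 10 libraries (columns), with 1 CPM added and colours limited to 1 in either direction. Morc2a knockout replicate 2 is blue in most rows (77 of all 91 tested genes are below the control mean, against 48.7% of all genes), and controls 1 and 3 are pale blue in most rows.

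The summed levels gave the same picture per library. The 97 genes summed to 10185 and 8467 CPM in Morc2aΔ/Δn, against 9917, 12300.5, 10070.5, 12090 and 12240.3 CPM in the controls, so that replicate 1 lay inside the control range and replicate 2 below it. Complex II was the exception, with 597 and 593 CPM against 635 to 761 in controls, where both knockout libraries were below all controls. In complex III (952 and 766 CPM against 925 to 1171), complex IV (1848 and 1333 against 1631 to 2230) and complex V (2685 and 2304 against 2641 to 3373) only replicate 2 was below the controls. Complex I gave 4102 and 3469.8 CPM against 4003 to 5046. Controls 4 and 5, of the same floxed line as Morc2aΔ/Δn, were among the higher controls; against these alone the median log2 fold change was -0.40. In RNA of a sorted population, fewer nuclei of a type with high levels and less RNA per nucleus cannot be told apart.

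**Figure D4:**
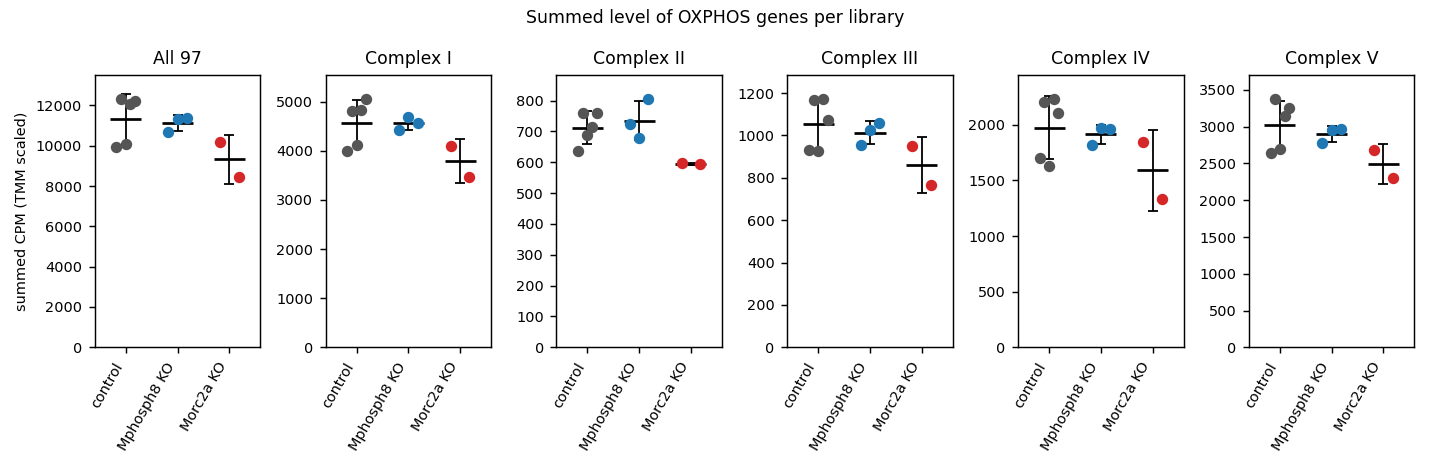
Summed CPM of all 97 OXPHOS genes and of each complex per library (points), with the group mean (line) and SD (bars) for 5 control, 3 Mphosph8 knockout and 2 Morc2a knockout libraries. Morc2a knockout replicate 2 (8467 CPM for all 97) lies below every control, and for complex II both Morc2a knockout libraries do.

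Ndufa4 had the lowest fold change. It was at 161, 229, 191, 239 and 227 CPM in controls 1 to 5 and at 148 and 87.0 CPM in Morc2aΔ/Δn. Both knockout libraries were below every control, replicate 2 far more so than replicate 1. The log2 fold change was -0.84 ± 0.20 SE with an edgeR adjusted p of 0.123, and it was -0.51 without replicate 2 and -1.26 without replicate 1, the only fit without a replicate in which it was called. Over all other settings and tools its adjusted p ran from 0.000555 (edgeR with no filter) to 0.553 (without replicate 2), with 0.00416 by DESeq2.

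Of the accessory subunits of complex I, Ndufa5 was at 52.0 and 59.9 CPM against 74.1, 91.7, 69.4, 103 and 105 CPM in controls 1 to 5 (log2 fold change -0.66 ± 0.20 SE, edgeR adjusted p = 0.229). Ndufa10 was at 159 and 139 CPM against 202, 214, 202, 188 and 224 CPM (log2 fold change -0.46 ± 0.13 SE, edgeR adjusted p = 0.193). In both genes the 2 knockout libraries were below every control and close to each other. The 2 most abundant complex I genes overlapped with controls: Ndufa2 was at 114 and 60.2 CPM against 70.8 to 121, and Ndufa13, which also has a role in cell death, at 191 and 127 CPM against 148 to 237.

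In complex II, Sdha was at 273 and 272 CPM against 285 to 329 in controls (log2 fold change -0.18 ± 0.12 SE, edgeR adjusted p = 0.627). Sdhd was at 84.1 and 68.0 CPM against 89.0 to 122 (log2 fold change -0.37 ± 0.17 SE, edgeR adjusted p = 0.431). Sdhb was at 128 and 157 CPM against 152 to 247 and overlapped, and Sdhc, at 15.8 and 18.1 CPM, lay within the controls. The assembly factor Sdhaf4, which binds Sdha before it joins Sdhb, was at 11.4 and 14.7 CPM against 16.8 to 25.9 (log2 fold change -0.67 ± 0.29 SE, edgeR adjusted p = 0.415). Sdha, Sdhd and Sdhaf4 did not overlap with controls.

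In complex III, the core protein Uqcrc1 was at 152 and 128 CPM against 176, 222, 181, 203 and 193 CPM in controls 1 to 5 (log2 fold change -0.48 ± 0.14 SE, edgeR adjusted p = 0.227). The Rieske iron-sulfur protein Uqcrfs1 was at 110 and 94.01 CPM against 115 to 171 (log2 fold change -0.50 ± 0.16 SE, edgeR adjusted p = 0.267). Both were below all controls in both libraries. The small subunits with the highest levels behaved otherwise: Uqcr10 was at 166 and 163 CPM, within the control range of 138 to 200, and Uqcr11 was at 142 in replicate 1 and 73.9 CPM in replicate 2, on either side of the control mean of 126.

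In complex IV, Cox5a, which lies on the matrix side of the enzyme, was at 63.7 and 42.8 CPM against 68.4 to 93.1 in controls (log2 fold change -0.62 ± 0.22 SE, edgeR adjusted p = 0.308), and its fold change was -0.37 without replicate 2 and -0.93 without replicate 1. The most abundant genes were low in replicate 2 only. Cox8a was at 292 and 179 CPM against 274 to 382, Cox6a1 at 264 and 194 CPM against 237 to 318, and Cox4i1 at 456 and 305 CPM against 406 to 572. Cox6b1 showed the same, at 167 and 105 CPM against 142 to 213. Cox6a2, at 3.41 and 11.6 CPM, differed between the libraries more than any of these, and Cox7a2 stayed within the controls at 141 and 110 CPM.

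In complex V, Atp5f1, subunit b of the peripheral stalk, was at 78.8 and 81.3 CPM against 103, 154, 98.9, 122 and 160 CPM in controls 1 to 5 (log2 fold change -0.67 ± 0.20 SE, edgeR adjusted p = 0.226). The catalytic subunit Atp5b was at 710 and 671 CPM against 732 to 997 (log2 fold change -0.31 ± 0.13 SE, edgeR adjusted p = 0.388). Atp5a1 was at 493.3 and 374 CPM against 487 to 634 and overlapped. Atp5f1 and Atp5b were below all controls in both libraries.

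A few genes had higher levels in Morc2aΔ/Δn. Atp5s, also called factor B, was at 29.6 and 32.6 CPM against 20.6, 16.2, 16.8, 23.8 and 17.97 CPM in controls 1 to 5 (log2 fold change 0.71 ± 0.24 SE, edgeR adjusted p = 0.277). Ndufaf5, which modifies an arginine of Ndufs7 during assembly of complex I, was at 57.5 and 58.7 CPM against 32.4 to 53.6 (log2 fold change 0.45 ± 0.20 SE, edgeR adjusted p = 0.430). In both genes the 2 knockout libraries agreed closely and lay above every control. The next log2 fold changes were 0.18 for the c-ring subunit Atp5g1, 0.16 for subunit g (Atp5l) and 0.14 for subunit e (Atp5k), all with overlapping groups; without replicate 2 the value for Atp5g1 was -0.046, and without replicate 1 that for Atp5k was -0.066. For Atp5l it was 0.033 without replicate 2. Against controls of the same line the log2 fold change was 0.0078 for Atp5k, 0.30 for Atp5g1 and 0.29 for Ndufaf5.

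Both knockouts were compared with the same 5 controls, so their values are not independent. The difference was therefore also tested with each knockout set against controls of its own floxed line. On that scale (Mphosph8Δ/Δn effect minus Morc2aΔ/Δn effect) the median of the 91 genes was 0.50 log2 units, against 0.00 for all genes, and 81 of the 91 were above 0 (50.3% of all genes). No gene of any kind was called by edgeR at an adjusted p under 0.05 (0% of all genes), and 31 of the 91 had an unadjusted p under 0.05 (7.95% of all genes), all with a value above 0 (3.91% of all genes). The smallest was Ndufa5, with a difference of 1.40 ± 0.27 SE and an adjusted p of 0.133. Between the lines, controls 4 and 5 were above controls 1 to 3 by a median of 0.23 log2 units over the 91 genes, with none called by edgeR (0.172% of all genes) and 74 of the 91 above 0 (49.6% of all genes). At an unadjusted p under 0.05 there were 8 genes (8.79% of the 91, against 9.21% of all genes), all of them higher in controls 4 and 5, where 4.26% of all genes were higher at that p. Control 2 lay with controls 4 and 5 (0.09, 0.10 and 0.13 against the control mean), and only controls 1 and 3 of its line were low (-0.17 each). A level shared by controls and knockouts of a line cancels in the difference, whereas the scatter of its controls does not. Each line has only 2 or 3 controls and carries only its own knockout. Whether an effect belongs to the knockout or to its line thus cannot be told apart.

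Other gene lists were read in the same libraries. For genes of glycolysis, the Morc2aΔ/Δn median was -0.34 on the log2 scale, with 7 of 16 lower at an unadjusted p under 0.05 (6.4% of all genes) and none called by edgeR, and the Mphosph8Δ/Δn median was -0.16 with none at that p. Tpi1, triosephosphate isomerase, was at 208 and 166 CPM in Morc2aΔ/Δn against 279 to 400 in controls (log2 fold change -0.78 ± 0.16 SE, edgeR adjusted p = 0.0630). Genes of the TCA cycle and pyruvate dehydrogenase had a median of -0.20, with 5 of 16 lower at that p; malate dehydrogenase Mdh2 was at 204 and 182 CPM against 276 to 370 (log2 fold change -0.65 ± 0.15 SE, edgeR adjusted p = 0.106). Values below 0 were found for 14 of 16 glycolytic and 12 of 16 TCA cycle genes in Morc2aΔ/Δn, and for 15 and 13 of 16 in Mphosph8Δ/Δn (51.3% of all genes in either comparison). For glycolysis, control 2 stood apart from the other controls, with a median of 0.31 against -0.11, 0.00, -0.04 and -0.13 relative to the control mean and a sum of 6377 CPM against 5223 to 5485. The glycolytic sums were 5183, 5288 and 4935 CPM in Mphosph8Δ/Δn and 4609 and 4105 CPM in Morc2aΔ/Δn. Whether these lists differ between the knockouts, or from the OXPHOS genes, was not tested.

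Further lists of mitochondrial and ribosomal genes were read in the same way, with no test between lists. The 35 tested assembly factors with other names had a median of -0.10 in Morc2aΔ/Δn, with 1 lower (Cox16) and 1 higher (Ttc19) at an unadjusted p under 0.05. The 9 electron carriers and regulators outside the stems, such as cytochrome c and its partner Cyc1, had a median of 0.03, and Cyc1 was at 329 and 319 CPM against 281 to 355 in controls. The 11 regulators of mitochondrial biogenesis had a median of -0.06 with none at that p; Nrf1 was at 78.3 and 64.9 CPM against 61.6 to 93.8, and Gabpa at 47.4 and 46.8 CPM against 42.2 to 54.8. Mitochondrial ribosomal proteins had a median of -0.03 over 77 genes and cytosolic ribosomal proteins of -0.13 over 82 genes, with 4 and 7 lower at that p, shares near the 6.4% of all genes. The smallest p-values in these lists belonged, in Morc2aΔ/Δn, to the ribosomal genes Rps3 (log2 fold change -0.71, edgeR adjusted p = 0.156) and Mrps28 (-1.49, edgeR adjusted p = 0.193), and in Mphosph8Δ/Δn to the ribosomal gene Mrps5 (-0.36, edgeR adjusted p = 0.810), followed by the complex III factor Lyrm7 (0.80, edgeR adjusted p = 0.831). In Mphosph8Δ/Δn the medians of these lists were -0.04, 0.10, 0.00, -0.01 and -0.04, and that of the TCA list was -0.08. Reads on the mitochondrial chromosome were removed before counting. The 13 mitochondrially encoded subunits (summed level 48.7 to 120 CPM over the libraries) therefore give no measure of their expression. For the 7 that passed the filter, the median log2 ratio to the control mean was -0.43, 0.16, -0.41, 0.20 and 0.48 in controls 1 to 5. It was -0.12, 0.10 and 0.26 in Mphosph8Δ/Δn and 0.13 and -0.77 in Morc2aΔ/Δn. Controls 1 and 3 and Morc2aΔ/Δn replicate 2 were thus lowest, as for OXPHOS genes, and the cause was not tested.

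**Figure D5:**
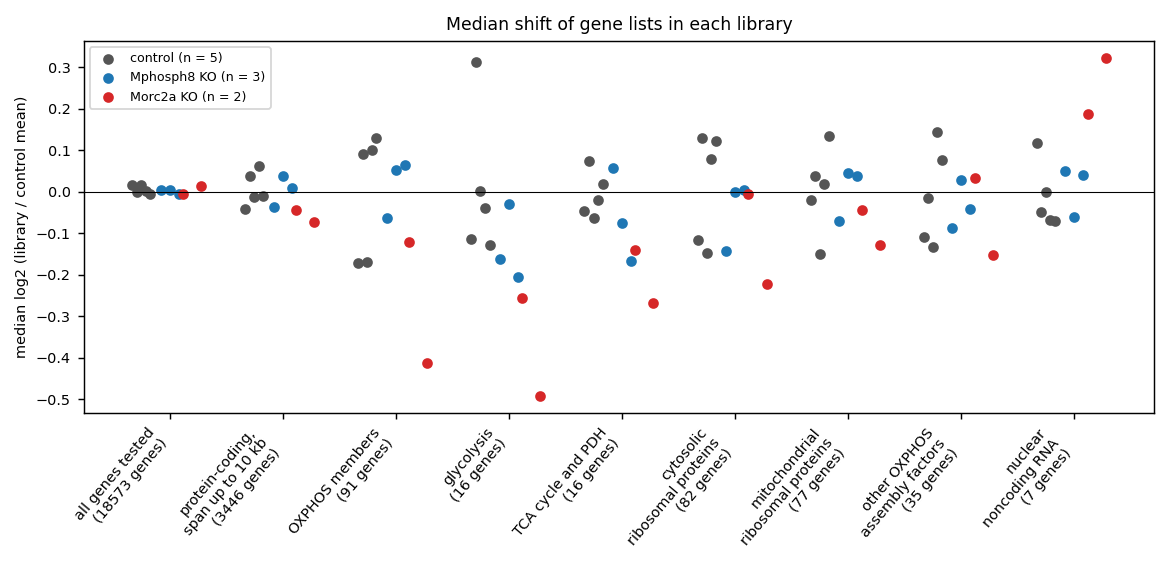
Median log2 ratio of gene lists to the control mean in each library (points, coloured by group); the number of tested genes is given under each list. OXPHOS genes, glycolysis and the TCA list are lowest in Morc2a knockout replicate 2 (-0.41, -0.49 and -0.27), where the nuclear noncoding RNA list is highest (0.32).

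Other features of the libraries moved with the shift in Morc2aΔ/Δn. Of 7 noncoding RNAs kept in the nucleus, all had a log2 fold change above 0 (median 0.20), where 51.3% of all genes lay below 0. At an unadjusted p under 0.05, 3 were higher (4.32% of all genes), with none called by edgeR. Snhg11, the most abundant, was at 12198 and 14668 CPM against 9518 to 12737 in controls (log2 fold change 0.30 ± 0.10 SE, edgeR adjusted p = 0.278). Together they summed to 23749 and 28364 CPM in Morc2aΔ/Δn, and to 25847, 19732, 20951, 20026 and 23168 CPM in controls 1 to 5. Control 1 was thus high for these RNAs and low for OXPHOS genes, as was Morc2aΔ/Δn replicate 2, whereas control 3 was low for OXPHOS genes without being high for these RNAs. OXPHOS genes are short, with a median span of 7.67 kilobases against 25.3 for all tested protein-coding genes, and protein-coding genes spanning up to 10 kilobases had a median of -0.09 (log2) in Morc2aΔ/Δn. The median was 0.00 for genes of 10 to 50, 0.01 for 50 to 200 and -0.08 for over 200 kilobases. The part of nuclear RNA content and of gene length in the result was not tested.

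Markers of cell types differed too. The 5 neuron markers, with none at 0, summed to 3617 and 3064 CPM in Morc2aΔ/Δn against 3888 to 4579 in controls. At an unadjusted p under 0.05, 3 were lower (6.4% of all genes) and 1 higher (4.32% of all genes), with none called by edgeR. Snap25, the most abundant, was at 1376 and 1381 CPM against 1805 to 1996 in controls (log2 fold change -0.47 ± 0.09 SE, edgeR adjusted p = 0.0528). The 3 excitatory markers summed to 722 and 363 CPM against 664 to 827, led by Camk2a (639 and 286 CPM against 546 to 698), and Slc17a6 was at 67.3 and 60.4 CPM against 94.3 to 116 (log2 fold change -0.75 ± 0.15 SE, edgeR adjusted p = 0.0652). The 4 inhibitory markers, led by Gad1, summed to 960 and 851 CPM against 980 to 1377. The neuron and inhibitory sums were below all controls in both libraries, whereas the excitatory sum and Camk2a were within the control range in replicate 1 and below it in replicate 2. Rbfox3 was at 280 and 251 CPM, not below the controls (150 to 274).

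Markers of other cell types varied between libraries as well. The 4 cerebellar granule markers, led by Zic1, summed to 32.1, 50.8, 57.3, 281 and 49.8 CPM in controls 1 to 5, to 169, 258 and 61.1 in Mphosph8Δ/Δn and to 26.6 and 46.2 in Morc2aΔ/Δn, where Gabra6 was at 0.745 and 0 CPM. The 5 oligodendrocyte markers, led by Mbp, summed to 599 and 487 CPM in Morc2aΔ/Δn against 666 to 840 in controls, and the 3 choroid plexus markers, led by Ttr, to 68.9 and 56.3 against 81.4 to 144. Pituitary markers, led by Pomc, stood at 295 CPM in Mphosph8Δ/Δn replicate 2 and at 2.53 to 22.4 in the other libraries, with Cga and Prl at 0 in both Morc2aΔ/Δn libraries; in the Mphosph8Δ/Δn comparison Gh was the only marker of any list called by edgeR (1.66, 108 and 3.93 CPM against 0 to 0.297, adjusted p = 0.00494). Over all libraries the summed levels ran as follows for the remaining lists: astrocyte (94.2 to 158), microglia (19.7 to 49.1), vascular (5.27 to 26.9), oligodendrocyte precursor (4.90 to 11.7) and erythrocyte markers (13.3 to 92.5 CPM). The lowest erythrocyte, vascular and microglia values were in Morc2aΔ/Δn replicate 2, although microglia markers were nearly as low in Mphosph8Δ/Δn replicate 3 (19.9 CPM). The endothelial gene Cldn5 was at 0 in both Morc2aΔ/Δn libraries. The part of cell composition in the OXPHOS values was not tested.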

How the data were processed

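RNA-seq of NeuN+ nuclei was analysed in 10 libraries. The deposited values are raw read counts per gene: the authors trimmed 50-base single reads (Trim Galore 0.5.0), removed reads on ribosomal and mitochondrial sequences (Bowtie2 2.3.4.1), aligned to GRCm38 and counted with featureCounts (Subread 1.6.2). The strand setting is not given in the sources used here. Counts ranged from 6686038 to 10764555 per library. Genes were joined to GENCODE M21 by Ensembl identifier. All 10 libraries were fitted in 3 groups with edgeR 4.0.16 (quasi-likelihood test, TMM scaling, filterByExpr) in R 4.3.3, with Benjamini-Hochberg adjustment over all 18573 genes, and checked on simulated data. CPM use the TMM-scaled library size. SE is the fold change divided by the root of the F statistic. Alternatives were RLE scaling, no filter, a minimum of 10 counts per library, same-line controls, each pair alone, a replicate block, leaving out each library, limma-voom (3.58.1) and DESeq2 (1.42.0). Named genes are the 2 most abundant subunits per complex, all complex II subunits, isoform pairs, the 5 smallest p and 5 largest changes per comparison, and of other lists the smallest p and most abundant marker; Nrf1, Gabpa, Cox16 and Ttc19, Ndufaf6 and the printed promoters were chosen after their values were seen. Values of 1 member are not reported here singly, but enter all counts, sums and medians. The genes, lists and tests were chosen with earlier results of these data known.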

Additional observations from a re-analysis of the deposited data

Results flagged for a closer look

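A test for a single distant library among the 5 controls, made for 47 genes, marked 2 genes of very low level; chance alone marks about 1 in 20 such groups. Cox4i2 was at 0.0989 CPM in control 4, which is 1 count, and at 0 in the other controls. Cox8b was at 1.49 CPM in control 5, which is 10 counts, against 0 to 0.396 CPM in the other controls.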

How the results depend on the processing

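In Mphosph8Δ/Δn no OXPHOS gene was called under any of the 18 other settings, and the median log2 fold change of the members ran from -0.06 to 0.03 without each replicate and from -0.02 to 0.09 otherwise, the 0.09 being that of the replicate block. In Morc2aΔ/Δn the median was below 0 under all settings run. It was -0.45 to -0.15 without each replicate, -0.40 against controls of the same line and -0.18 with the replicate block. No knockout library is numbered 4 or 5, so the block gave controls 4 and 5, those of the same line, no weight in that value. Added after seeing the data, the median was -0.12 for library 1 alone. With Morc2aΔ/Δn reduced to 1 library, it was assumed to vary like the other groups. The count of OXPHOS genes called in Morc2aΔ/Δn was 0, but 2 with no filter, 1 with 10 counts in every library, 5 by DESeq2 and 0 to 1 without each replicate. Counts of all genes called moved more. In Mphosph8Δ/Δn, 21 became 110 with no filter, 10 with controls of the same line, 13 with the replicate block, 72 by DESeq2 and 6 to 23 without each replicate (lowest without Mphosph8Δ/Δn replicate 2). In Morc2aΔ/Δn, 16 became 236 with no filter, 61 with 10 counts in every library, 10 with controls of the same line, 6 in the pair alone, 67 with the replicate block, 35 by limma-voom, 335 by DESeq2 and 3 to 54 without each replicate (lowest without Morc2aΔ/Δn replicate 2, highest without control 5). The cause was not tested. The log2 fold change changed sign in 3 genes, whose values without each replicate ran from -0.027 to 0.59 for Sdhc in Mphosph8Δ/Δn (-0.027 without Mphosph8Δ/Δn replicate 3), from -0.046 to 0.38 for Atp5g1 in Morc2aΔ/Δn (-0.046 without replicate 2) and from -0.066 to 0.32 for Atp5k in Morc2aΔ/Δn (-0.066 without replicate 1). Of the other values of single genes, 423 kept direction and side of the threshold and 9 passed it. Same-numbered samples did not deviate together (r -0.03 to 0.04 over 7 pairs, against -0.06 to 0.04 over 24 others), so the numbers were not taken as pairs. For Morc2aΔ/Δn the same numbers belong to controls of the other floxed line. Pairing with controls 4 and 5 of its own line could not be checked this way.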
